A study of Mus musculus with 5 samples.

Results

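The genes described here are 9 mouse genes of the innate immune response: the Toll-like receptors Tlr2 and Tlr4, the NF-kB regulators Nfkbia, Nfkbiz and Tnfaip3, and the induced genes Ptgs2, Tnf, Il6 and Socs3. They were taken by gene name from the array annotation, which gave 15 of 56605 probes for 9 of 37074 gene names. Messenger RNA was measured on 5 single-color microarrays of 60-base probes, with 1 array for each of 5 conditions. LSEC were liver sinusoidal endothelial cells from mouse liver. The 3 TEC samples were endothelial cells taken with CD31 magnetic beads from collagenase-digested tumors that hepatoma cell lines had formed in the mouse liver. The lines were HAK1B and KYN2, both human, and Hepa1-6, from mouse. The labels give strain C57BL/6 for LSEC and for each of the 3 TEC samples, and C57L for the fifth sample, cultured Hepa1-6 cells. The study's methods used female mice 6 weeks old, either C57BL/6 or BALB/c nu/nu nude mice, without saying which strain carried which tumor, and their array paragraph names Huh-7 where the labels name HAK1B. No group received a drug or a gene deletion according to the labels. Bead-selected cells are not pure endothelium, and a bulk sample does not show which of its cells a transcript came from.

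Toll-like receptors recognise microbial products and cell debris and signal through adaptor proteins to the IkB kinases. NF-kB is held in the cytoplasm by IkB proteins until these are degraded, after which it enters the nucleus and switches on cytokines, enzymes of inflammation and its own inhibitors. Liver sinusoidal endothelial cells line vessels that receive portal blood with gut-derived products, and they carry Toll-like receptors themselves. Macrophages and neutrophils express most of these genes strongly as well.

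The 9 genes fell into distinct patterns across the arrays. Ptgs2 was higher in all 3 TECs than in LSEC by 52.8-fold, 13.6-fold and 39.8-fold (HAK1B, Hepa1-6 and KYN2), and it was the only one of the 9 to be 2-fold or more away from LSEC in the same direction in every TEC. Tlr2 was 11.1-fold higher in HAK1B TEC but 1.82-fold lower in Hepa1-6 TEC. Tnf was 7.67-fold higher in KYN2 TEC. Nfkbia, Nfkbiz, Tnfaip3 and Socs3 moved within 2.31-fold of LSEC in every TEC, and Il6 within 2.16-fold. All comparisons share the LSEC array, so the differences between TEC and LSEC are not independent of each other, and with 1 array per condition none of them has a replicate check.

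**Figure D1:**
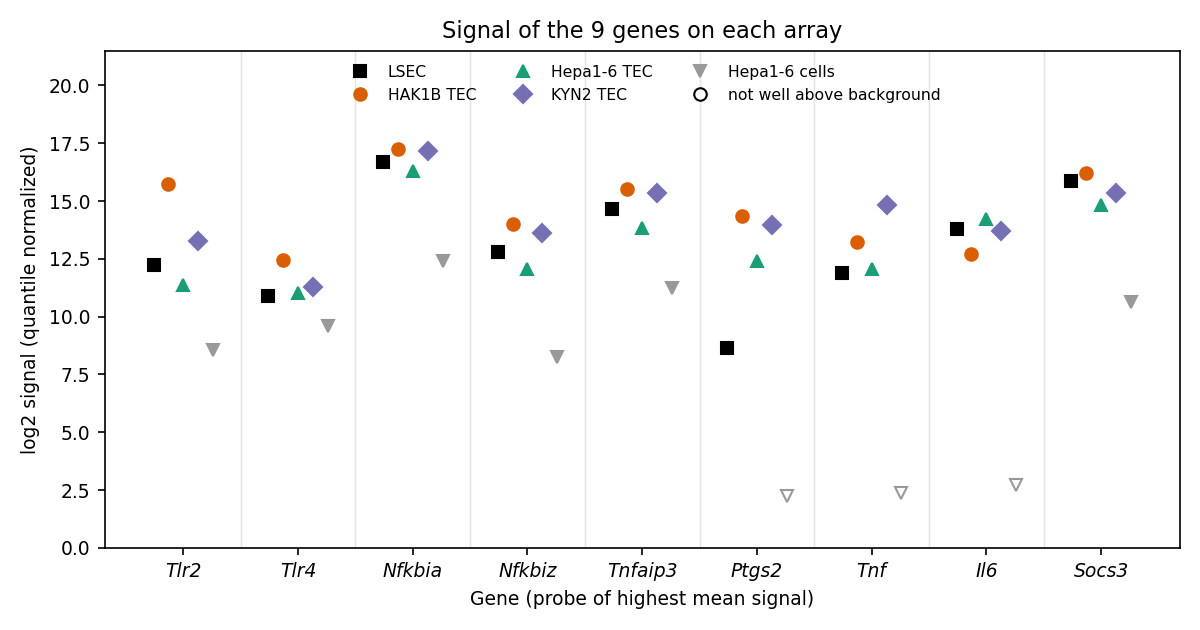
Quantile-normalized log2 signal (vertical axis) of the 9 genes (horizontal axis, the probe of highest mean signal per gene) on each of the 5 arrays, with open symbols where the probe was not well above background. The cultured Hepa1-6 cells are lowest for all 9 genes, and Ptgs2 is the gene whose LSEC value, 8.64, lies farthest below the 3 TEC values.

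The upstream sequence of a gene bears on its response to NF-kB, which binds a 10-base kappaB element. RefSeq promoters (build GRCm38.p6) were at hand for 7 of the 9 genes, not for Tlr4 and Nfkbiz. In the window from 250 bases before to 50 bases after the start, 4 of the 7 genes held a match to the kappaB consensus on either strand (Tlr2, Il6, Tnfaip3 and Nfkbia), against 9.55% of 27025 genes in the table. Ptgs2, Tnf and Socs3 held none in this short window, which says nothing about elements farther away. The 250 bases before the start are shown for the 4 genes with a match and for Ptgs2. Of the 9 genes, Ptgs2 had the largest mean difference between the TECs and LSEC. The stretches run 5′ to 3′ along the gene, with kappaB matches in capitals.
Nfkbia (chr12:55492648-55492897, reverse strand): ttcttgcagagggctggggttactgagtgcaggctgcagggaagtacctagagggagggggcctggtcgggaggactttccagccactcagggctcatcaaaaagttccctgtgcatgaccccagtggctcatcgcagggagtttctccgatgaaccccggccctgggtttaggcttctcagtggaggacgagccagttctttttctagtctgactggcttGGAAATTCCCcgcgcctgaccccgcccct
Tnfaip3 (chr10:19015411-19015660, reverse strand): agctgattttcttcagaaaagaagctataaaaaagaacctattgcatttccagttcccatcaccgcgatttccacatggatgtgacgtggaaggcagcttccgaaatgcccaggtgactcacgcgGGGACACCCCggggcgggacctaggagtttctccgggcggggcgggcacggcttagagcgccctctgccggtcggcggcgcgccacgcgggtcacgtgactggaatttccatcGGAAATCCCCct
Tlr2 (chr3:83841609-83841858, reverse strand): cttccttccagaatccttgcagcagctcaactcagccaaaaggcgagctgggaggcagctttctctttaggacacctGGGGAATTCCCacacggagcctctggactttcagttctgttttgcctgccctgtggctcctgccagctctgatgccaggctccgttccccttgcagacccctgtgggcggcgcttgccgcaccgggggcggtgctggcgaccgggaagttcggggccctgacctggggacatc
Il6 (chr5:30012864-30013113, forward strand): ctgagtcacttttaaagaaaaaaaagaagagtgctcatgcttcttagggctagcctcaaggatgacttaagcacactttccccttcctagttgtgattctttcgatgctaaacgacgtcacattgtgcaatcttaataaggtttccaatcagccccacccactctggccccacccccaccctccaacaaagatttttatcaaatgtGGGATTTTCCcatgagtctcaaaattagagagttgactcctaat
Ptgs2 (chr1:150099781-150100030, forward strand): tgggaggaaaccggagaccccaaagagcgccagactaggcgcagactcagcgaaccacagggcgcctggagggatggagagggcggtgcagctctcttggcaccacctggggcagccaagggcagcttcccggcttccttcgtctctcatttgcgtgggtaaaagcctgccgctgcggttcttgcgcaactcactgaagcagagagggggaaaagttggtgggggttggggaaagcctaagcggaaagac
The Nfkbia match began 29 bases before the start and the Il6 match 44 bases before it. The capitals in Tlr2 are 2 overlapping matches, which began 173 and 172 bases before the start. A further Tlr2 match began 8 bases before the start and runs past the end of the stretch shown, so its letters are in lower case. Tnfaip3 has 2 annotated starts, and the matches lay 125 and 12 bases before the one shown. A match describes the letters in this window and is not evidence of binding.

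Signals are given below as log2 of the processed signal after quantile normalization over the 5 arrays. A ratio is the difference of such values from LSEC, and mean ± SD runs over the 3 TECs, whose spread is that between tumor lines and not between replicates. A probe was called well above background by the scanner software. By the rule of size in the study's methods, a probe was called higher where its ratio reached 1.5 and its Z-score 2, and lower where the ratio was 0.66 or less and the Z-score -2 or below. The Z-score part asked in effect for 7.25-fold higher in HAK1B TEC, 11.4-fold in Hepa1-6 TEC and 6.79-fold in KYN2 TEC. It called 2 of the 9 genes higher in HAK1B TEC (Tlr2 and Ptgs2), 1 in Hepa1-6 TEC (Ptgs2) and 2 in KYN2 TEC (Ptgs2 and Tnf), and 0 lower in any of these. With scaling to the 75th percentile the Ptgs2 call in Hepa1-6 TEC was lost, leaving 0 there, although its log2 ratio was 3.60 in place of 3.77. Over all probes it called 2.77% higher and 3.41% lower in HAK1B TEC, 3.77% and 1.94% in Hepa1-6 TEC, and 3.29% and 2.52% in KYN2 TEC. The 2-fold count over all 3 TECs was 1 of 9 higher and 0 of 9 lower, beside 5.54% and 8.26% of 26771 genes. In the limma fit of the 3 TECs against the LSEC array, which assumes that the lone LSEC array varies as the TECs do, 0 of 42113 probes (0%) had an adjusted p under 0.05, with 3583 at an unadjusted p under 0.05 and a smallest adjusted p of 0.443 (limma, 0.0576 with normexp background correction).

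Tlr2, the receptor for bacterial lipoproteins, had log2 signals of 12.25 in LSEC, 15.72 in HAK1B TEC, 11.38 in Hepa1-6 TEC, 13.28 in KYN2 TEC and 8.55 in Hepa1-6 cells. HAK1B TEC was highest and the cultured cells lowest, and the LSEC value lay between those of the TECs. The log2 ratios to LSEC were 3.47, -0.87 and 1.03, so that the TECs differed among themselves by 20.2-fold (HAK1B over Hepa1-6) and their mean, 1.21 ± 2.18 (SD, n = 3), was smaller than their spread. That mean was 0.08 without HAK1B TEC and 2.25 without Hepa1-6 TEC. In HAK1B TEC the ratio exceeded that of 98.4% of all probes tested, and in KYN2 TEC that of 83.3%. The Tlr2 probe lies on chromosome 3 from 83640344 to 83640403 (array design build mm9).

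Tlr4, the receptor for bacterial lipopolysaccharide, was read by 3 probes that gave different answers. The brightest, A_55_P2714823 (chromosome 4 from 66591199 to 66591258, mm9), is assigned to an Ensembl transcript and lies 87.5 kb from the probe A_51_P300806 (chromosome 4 from 66503724 to 66503782), which is assigned to the RefSeq transcript. As the RefSeq gene is 19031 bases long, the brightest probe lies outside it. It gave log2 signals of 10.91 in LSEC, 12.43 in HAK1B TEC, 11.04 in Hepa1-6 TEC, 11.27 in KYN2 TEC and 9.58 in Hepa1-6 cells, or a mean log2 ratio of 0.67 ± 0.74 (SD, n = 3). That mean was 0.25 without HAK1B TEC and 0.94 without Hepa1-6 TEC. By the median over the probes it was 0.13. The RefSeq probe A_51_P300806 gave 11.26 in LSEC and 10.26, 10.25 and 10.62 in HAK1B, Hepa1-6 and KYN2 TEC. On that probe LSEC was highest, and the mean log2 ratio was -0.88 ± 0.21 (SD, n = 3), with all 3 TECs lower by 2.0-fold, 2.01-fold and 1.55-fold. The last probe, also assigned to the RefSeq transcript, was dim on every array (log2 signals from 6.16 to 6.70) and gave 0.13 ± 0.29. The direction of Tlr4 in TECs therefore depended on the probe, and neither reading passed the rule of size.

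**Figure D2:**
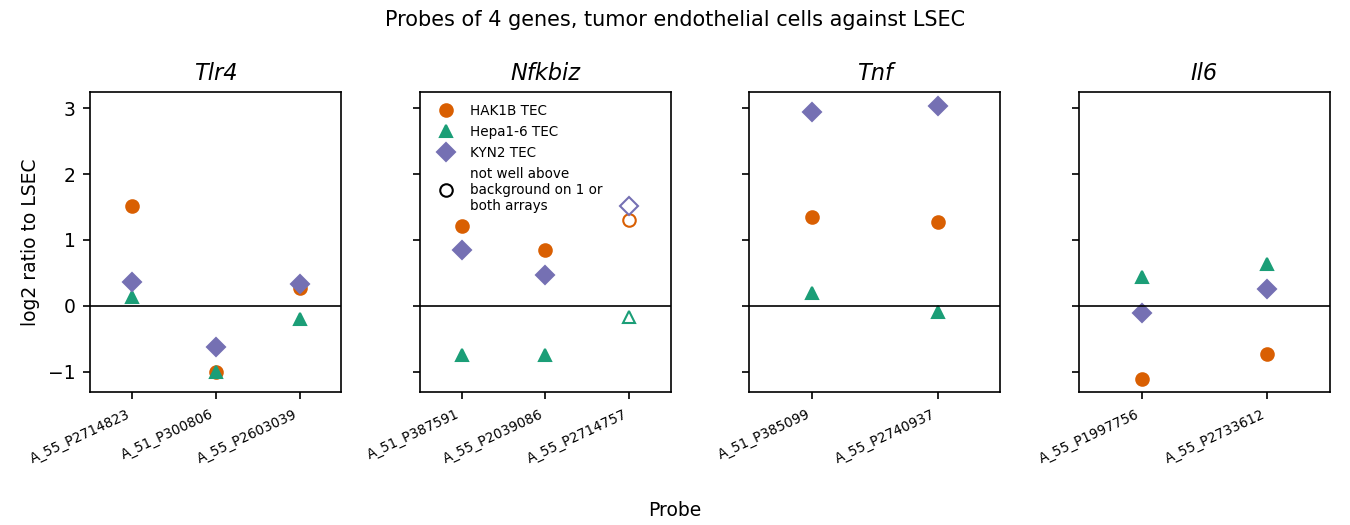
Log2 ratio to LSEC (vertical axis) of each probe (horizontal axis) of the 4 genes with more than 1 probe, with 1 symbol per TEC and open symbols where the probe was not well above background on 1 or both arrays. The Tlr4 probes A_55_P2714823 and A_51_P300806 lie on opposite sides of 0, and both Tnf probes place KYN2 TEC highest.

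Nfkbia encodes IkB-alpha, the classical inhibitor that NF-kB itself induces. It was the brightest of the 9 genes, with log2 signals of 16.67 in LSEC, 17.23 in HAK1B TEC, 16.30 in Hepa1-6 TEC and 17.18 in KYN2 TEC, and 12.42 in Hepa1-6 cells (probe between 56590945 and 56591440 of chromosome 12, mm9). HAK1B and KYN2 TEC lay above LSEC by 1.48-fold and 1.42-fold, and Hepa1-6 TEC lay 1.29-fold below it. The mean log2 ratio, 0.24 ± 0.52 (SD, n = 3), was smaller than its spread. When the arrays were scaled to the 75th percentile, the sign in Hepa1-6 TEC turned (log2 ratio 0.05). The log2 ratios of HAK1B and KYN2 TEC then went from 0.56 and 0.51 to 1.02 and 1.17.

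Nfkbiz encodes IkB-zeta, a nuclear IkB protein needed for part of the secondary response. Its brightest probe (chromosome 16 from 55812091 to 55812150, mm9) had log2 signals of 12.79 in LSEC, 13.99 in HAK1B TEC, 12.04 in Hepa1-6 TEC, 13.63 in KYN2 TEC and 8.24 in Hepa1-6 cells. HAK1B and KYN2 TEC again lay above LSEC, with log2 ratios of 1.21 and 0.84, and Hepa1-6 TEC below it, with -0.75. The second RefSeq probe kept this order, at 0.85, 0.46 and -0.75. The last Nfkbiz probe, assigned to an Ensembl transcript, was not well above background on any of the 5 arrays.

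Tnfaip3 encodes a ubiquitin-editing enzyme that ends NF-kB signalling. Its log2 signals were 14.64 in LSEC, 15.54 in HAK1B TEC, 13.85 in Hepa1-6 TEC, 15.33 in KYN2 TEC and 11.24 in Hepa1-6 cells (chromosome 10 from 18720776 to 18720835, mm9). The order of the arrays was that of Nfkbia and Nfkbiz, with HAK1B TEC first, then KYN2 TEC, LSEC, Hepa1-6 TEC and the cultured cells. The log2 ratios were 0.90, -0.79 and 0.69, and the mean was 0.26 ± 0.92 (SD, n = 3). Tlr2 followed the same order. With scaling to the 75th percentile Nfkbia left this order, as KYN2 TEC lay above HAK1B TEC and Hepa1-6 TEC above LSEC. No replicate arrays exist to set the steps between neighbors in this order against.

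Ptgs2, the inducible cyclooxygenase that makes the precursor of the prostaglandins, had log2 signals of 8.64 in LSEC, 14.37 in HAK1B TEC, 12.41 in Hepa1-6 TEC and 13.96 in KYN2 TEC (chromosome 1 from 151954744 to 151954803, mm9). In Hepa1-6 cells it was not well above background. All 3 TECs lay well apart from LSEC, at log2 ratios of 5.72, 3.77 and 5.32, with a mean of 4.94 ± 1.03 (SD, n = 3). These ratios exceeded those of 99.7%, 97.0% and 99.7% of the probes tested. The limma interval of the mean ran from 2.41 to 7.46, at an unadjusted p of 0.00495 and an adjusted p of 0.443 (limma, Benjamini-Hochberg). Hepa1-6 TEC was at least 87.5-fold above the cultured Hepa1-6 cells, a lower limit by the processed signal, set against the dimmest signal well above background on that array. LSEC was at least 6.42-fold above them on the same terms (with normexp background correction the measured log2 ratio of the cells to LSEC was -2.65, a slightly smaller difference).

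Tnf, the founding cytokine of its family, had log2 signals on its brighter probe of 11.89 in LSEC, 13.24 in HAK1B TEC, 12.08 in Hepa1-6 TEC and 14.83 in KYN2 TEC (chromosome 17 from 35336795 to 35336854, mm9). KYN2 TEC was highest, 7.67-fold above LSEC and 3.01-fold above HAK1B TEC, and Hepa1-6 TEC and LSEC lay close together. The second probe gave log2 ratios of 1.28, -0.10 and 3.04, with the same array highest and the opposite sign in Hepa1-6 TEC. The mean log2 ratio of the brighter probe was 1.49 ± 1.38 (SD, n = 3), and 0.77 without KYN2 TEC or 2.14 without Hepa1-6 TEC. Neither probe was well above background in Hepa1-6 cells, where LSEC was at least 61.0-fold higher by the brighter probe.

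Il6, a cytokine that acts on hepatocytes to start the acute phase response, had log2 signals on its brighter probe of 13.80 in LSEC, 12.69 in HAK1B TEC, 14.24 in Hepa1-6 TEC and 13.70 in KYN2 TEC (chromosome 5 from 30346367 to 30346426, mm9). By the brightest probe of each gene, Il6 was the only one of the 9 that was lowest of the 4 endothelial samples in HAK1B TEC and highest in Hepa1-6 TEC. The log2 ratios were -1.11, 0.44 and -0.11, and the last turned to 0.21 when the arrays were scaled to the 75th percentile. The second probe gave -0.74, 0.63 and 0.25. Neither Il6 probe was well above background in Hepa1-6 cells, and LSEC was at least 229-fold above them by the brighter one.

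Socs3, an inhibitor of signalling downstream of the IL-6 receptor, had log2 signals of 15.87 in LSEC, 16.21 in HAK1B TEC, 14.85 in Hepa1-6 TEC, 15.36 in KYN2 TEC and 10.65 in Hepa1-6 cells (chromosome 11 from 117827480 to 117827539, mm9). HAK1B TEC lay 1.27-fold above LSEC and Hepa1-6 TEC 2.03-fold below it. KYN2 TEC had a log2 ratio of -0.51, which turned to 0.17 under the 75th percentile scaling. The mean was -0.39 ± 0.69 (SD, n = 3), smaller than its spread.

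**Figure D3:**
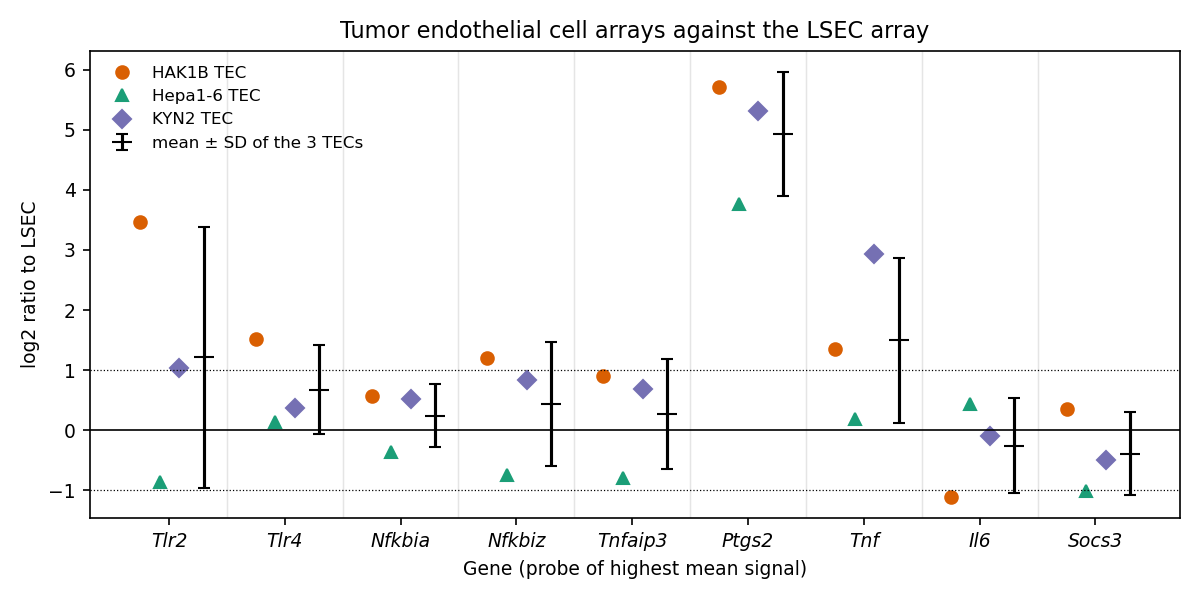
Log2 ratio of each TEC array to the LSEC array (vertical axis) for the 9 genes (horizontal axis), with the mean and SD of the 3 TECs beside the points and dotted lines at 2-fold. Ptgs2, at 3.77 to 5.72, is the only gene with all 3 TECs past the same dotted line.

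Across the 9 genes the median log2 ratio was 1.21 in HAK1B TEC, -0.37 in Hepa1-6 TEC and 0.69 in KYN2 TEC, beside -0.03, 0.07 and -0.03 over all genes tested. Scaling to the 75th percentile turned the Hepa1-6 TEC median of the 9 genes to 0.05 and moved that of KYN2 TEC to 1.17. Of the 4 endothelial samples, HAK1B TEC was highest for 7 of the 9 genes and Hepa1-6 TEC lowest for 5 (Tlr2, Nfkbia, Nfkbiz, Tnfaip3 and Socs3). Over all genes tested, HAK1B TEC was highest for 19.9% and Hepa1-6 TEC lowest for 30.8%. LSEC was highest for 0 of the 9, beside 28.5% of all genes. With Tlr4 read by its RefSeq probe, HAK1B TEC was highest for 6 of the 9, Hepa1-6 TEC lowest for 6 and LSEC highest for 1. With scaling to the 75th percentile, HAK1B TEC was highest for 6 and Hepa1-6 TEC lowest for 4, as Nfkbia left both counts. Over all probes tested, the median log2 ratio of Hepa1-6 TEC was 0.03 after quantile normalization and 0.42 after scaling to the 75th percentile. The 3 TEC arrays were on 1 slide, LSEC on another and the cultured cells on the last of 3 slides, so slide and the difference between TEC and LSEC cannot be told apart, whereas the TECs can be compared within their slide.

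Against the cultured Hepa1-6 cells, the line that formed 1 of the 3 tumors, all 9 genes were higher on every endothelial array by the brightest probe. The cells were the lowest of the 5 samples for 9 of 9 genes, beside 6972 of 26771 genes tested. The rule of size called 3 of the 9 genes lower in the cells than in LSEC (Ptgs2, Tnf and Il6), for which a gene had to be 51.2-fold lower in effect, and 0 higher, beside 4.04% and 2.16% of all probes. None of these 3 was well above background in the cells. The lower limit of the difference was 6.42-fold for Ptgs2, under the 51.2-fold asked. It was 61.0-fold for Tnf and 229-fold for Il6 by their brighter probes. The Ptgs2 call was lost with scaling to the 75th percentile (Tnf and Il6 called) and with normexp background correction (Nfkbia, Nfkbiz, Tnf, Il6 and Socs3 called). Where probes had to be present on both arrays, which leaves out Ptgs2, Tnf and Il6, the called genes were Tlr2, Nfkbia, Nfkbiz, Tnfaip3 and Socs3. The other 6 genes were measured above background in the cells and were lower than in LSEC by 12.97-fold (Tlr2), 2.51-fold (Tlr4, and 5.52-fold by its RefSeq probe), 18.99-fold (Nfkbia), 23.3-fold (Nfkbiz), 10.6-fold (Tnfaip3) and 37.4-fold (Socs3). The cells are a culture, and culture and cell type cannot be told apart.

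The genes around these 9 in the pathway were taken as lists, with counts of genes 2-fold or more higher or lower in all 3 TECs, to be read beside the 5.54% and 8.26% of all genes tested. Where 1 TEC is left out, the shares past 2-fold in both remaining TECs were 8.47% higher and 11.3% lower without Hepa1-6 TEC, 7.47% and 10.2% without KYN2 TEC, and 8.94% and 10.6% without HAK1B TEC. Of the 5 NF-kB subunits 0 were past 2-fold in all 3 TECs. Nfkb2, Relb and Rel, subunit genes that NF-kB can itself induce, were higher in HAK1B TEC at log2 ratios of 1.65, 1.67 and 1.73. In Hepa1-6 TEC their log2 ratios were 0.55, -0.15 and -0.77, and in KYN2 TEC 0.35, 0.87 and 1.03. Of the 15 other IkB family and feedback inhibitor genes 1 was higher, Tnip3, which binds Tnfaip3. Tnip3 was not well above background in LSEC and, by the processed signal, was at least 24.1-fold higher in the mean of the TECs. With normexp background correction, which adds an offset of 50, its measured mean log2 ratio was 2.90, smaller than that limit, so the size of the difference depends on the background correction. Nfkbie, a further IkB gene, had log2 ratios of 2.79, -0.18 and 0.93 and Zc3h12a, an RNase that degrades Il6 mRNA, of 2.34, 0.09 and 1.54, so that HAK1B TEC was highest for both. Of the 20 kinases and adaptors, Tab1 and Ikbke were higher, at mean log2 ratios of 1.33 ± 0.47 and 2.30 ± 0.96 (SD, n = 3), and 0 lower. Traf6, the ubiquitin ligase that Toll-like receptors use, had 1.26 ± 0.27. With normexp background correction this last list had 0 genes past 2-fold in all 3. Without Hepa1-6 TEC, 1 of the subunits and 3 of the other IkB family and feedback inhibitor genes were 2-fold or more higher in both remaining TECs.

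Of the 10 other Toll-like receptors 1 was higher, the flagellin receptor Tlr5, which normexp background correction took off the count. Tlr5 was not well above background in LSEC. By the processed signal it was at least 2.87-fold higher in the mean of the TECs, a limit not given for each TEC. Over the scalings and background correction tried, its mean log2 ratio went down to 1.02, smaller than that limit. Tlr3, the receptor for double-stranded RNA, had log2 ratios of -0.99, -1.84 and -0.999. Tlr11 was above background in Hepa1-6 TEC alone. Of the 20 co-receptors and adaptors 0 were higher and 1 lower, Ly96, the protein that holds lipopolysaccharide on Tlr4, with log2 ratios of -2.68, -2.14 and -1.61. Cd14, which hands lipopolysaccharide to that complex, had log2 ratios of 2.22, 0.23 and 1.62. Irf5, a transcription factor of the same pathway, had 1.22 ± 0.40 (SD, n = 3). Without Hepa1-6 TEC, 2 of the other receptors were higher and 1 lower, and 2 of the co-receptors and adaptors were higher and 4 lower. Scaling to the 75th percentile or quantile normalization by pair also placed 1 of the other receptors lower, and the latter, or leaving out KYN2 TEC, placed 2 co-receptors or adaptors lower.

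Of 30 other NF-kB target genes, 8 were higher in all 3 TECs (Ccl5, Csf3, Plau, Lif, Saa3, Nos2, F3 and Plaur) and 2 lower (Ccl20 and Csf1). Csf3 was not well above background in LSEC, and Ccl20 was not in any of the 3 TECs, so the size of their differences was not measured. Saa3, an acute phase protein, had log2 ratios of 7.02, 3.26 and 5.03. F3, the tissue factor that starts coagulation, had 3.73, 3.49 and 5.17, and Plaur, the urokinase receptor, 4.14, 3.18 and 3.43. Like Ptgs2 and Tnf, these 3 genes had a mean ratio larger than its SD over the 3 TECs. They were named for having the largest mean ratios of their list, so this is not a separate result. Without Hepa1-6 TEC, 17 of the 30 were 2-fold or more higher in both remaining TECs, as were 3 of the 9 main genes (Tlr2, Ptgs2 and Tnf), beside 8.47% of all genes. With normexp background correction 6 were higher and 1 lower.

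Around Tnf, Il6 and Socs3, 3 of 19 genes of the TNF receptors and the IL-6 family were higher (Tnfrsf1b, Osm and Il11) and 5 lower (Tnfrsf1a, Il6st, Jak1, Osmr and Lifr). Il11 was not well above background in LSEC. Il6st, the signalling subunit that IL-6 and its relatives share, had a log2 signal of 15.28 in LSEC and of 11.26, 11.41 and 11.50 in HAK1B, Hepa1-6 and KYN2 TEC. Its log2 ratios of -4.02, -3.87 and -3.78 were among the most even of the genes named, with a mean of -3.89 ± 0.12 (SD, n = 3). Lifr, the receptor for leukemia inhibitory factor, had -3.99 ± 0.80, and Osm, the cytokine oncostatin M, 3.64 ± 0.91. Of the 7 other SOCS genes, 0 were higher and 1 lower, Socs1, at -1.54 ± 0.42. With scaling to the 75th percentile, 3 of the 19 receptor and cytokine genes were lower in all 3 TECs in place of 5. That scaling, normexp background correction and quantile normalization by pair each left 2 of the 19 higher in place of 3. Socs5 had -0.79 ± 0.47 and Socs6 0.67 ± 0.24.

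Around Ptgs2, 0 of 18 genes of prostaglandin synthesis and reception were higher in all 3 TECs and 4 were lower (Ptgs1, Hpgd, Tbxa2r and Slco2a1). Hpgd, the enzyme that inactivates prostaglandins, had log2 ratios of -5.38, -3.81 and -3.95, opposite in sign to those of Ptgs2 on the same arrays. Slco2a1, the transporter that takes prostaglandins into cells, had -2.49, -2.63 and -3.66. Tbxa2r, the thromboxane receptor, had -3.17, -2.85 and -1.74. Without Hepa1-6 TEC, 2 of the 18 were higher and 6 lower. Of the 9 genes of AU-rich mRNA decay, which shortens the life of cytokine mRNAs, 0 were higher and 1 lower, Tia1, at -1.78 ± 0.43 (SD, n = 3). Hnrnpd had 1.43 ± 0.84 and Rc3h1 -0.67 ± 0.37.

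**Figure D4:**
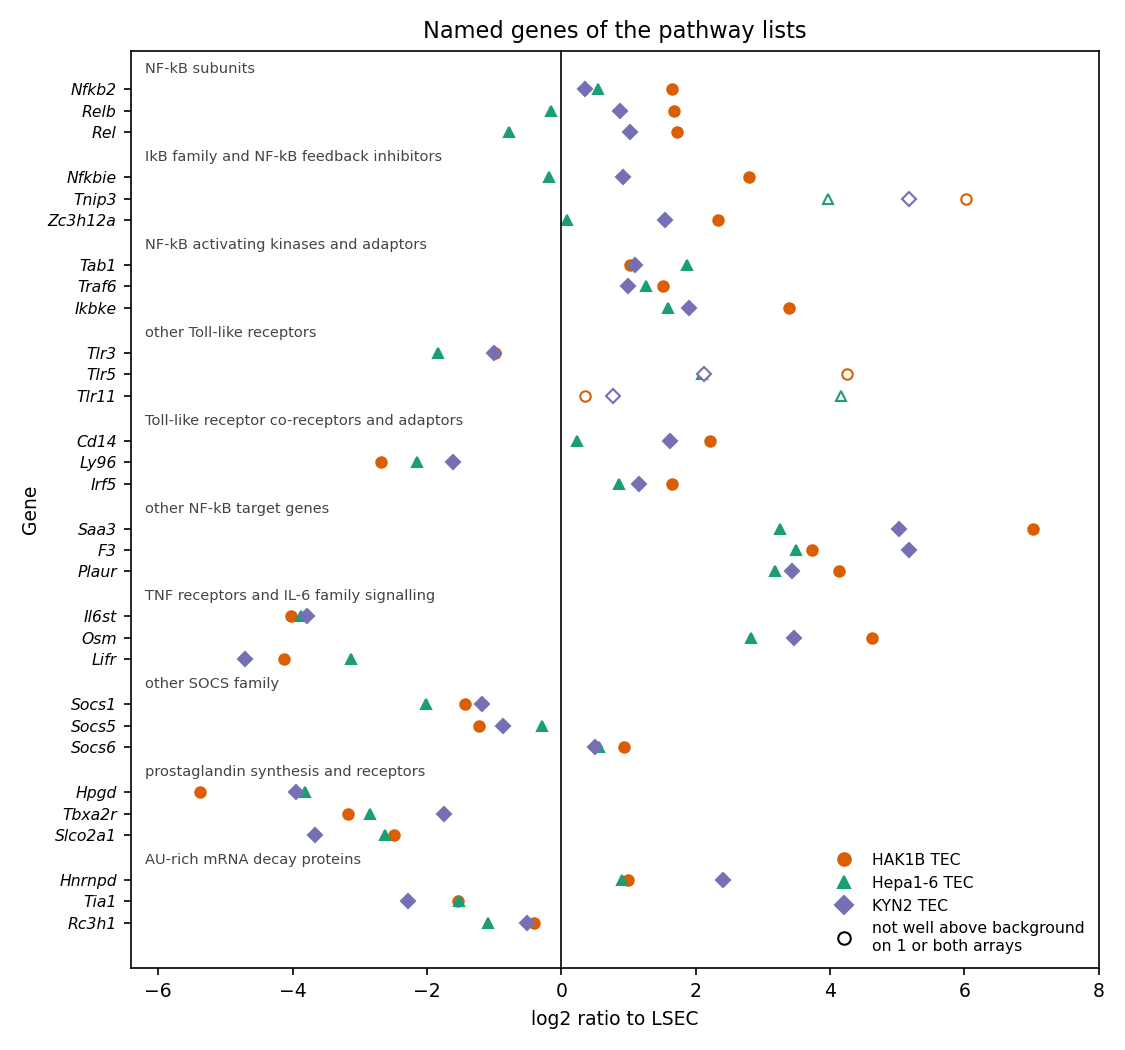
Log2 ratio to LSEC (horizontal axis) of the 3 genes named from each of 10 pathway lists (vertical axis), with 1 symbol per TEC and open symbols where the probe was not well above background on 1 or both arrays. Il6st, Lifr, Hpgd and Slco2a1 lie left of 0 in all 3 TECs, and Saa3, F3, Plaur and Osm right of it.

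Markers of the cell types that such a sample could hold moved on the same arrays, and their part in the results was not tested. Of 13 endothelial markers 9 were 2-fold or more lower in all 3 TECs and 0 higher. Their summed signal was 6.44-fold, 6.60-fold and 3.21-fold lower in HAK1B, Hepa1-6 and KYN2 TEC than in LSEC, although all 13 were well above background on the 4 endothelial arrays, with Egfl7 the brightest on each. In these bulk samples, fewer cells of a type and less RNA per cell cannot be told apart. Of 12 LSEC markers 11 were lower in all 3. The summed signal of 14 macrophage markers was 1.02-fold, 0.56-fold and 0.72-fold that of LSEC, with Cd5l the brightest in LSEC and Lyz2 in the TECs, and all 14 above background. Within that list Spp1 was 2-fold or more higher in all 3 TECs, and Clec4f, Cd5l, Timd4 and Marco were lower.

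Of 15 neutrophil markers 7 were higher in all 3 TECs and 0 lower, with median log2 ratios of 4.75, 3.81 and 1.15 (3.82, 2.41 and 0.62 with normexp background correction). Their summed signal was 2.41-fold, 0.96-fold and 0.96-fold that of LSEC, with S100a9 the brightest in HAK1B TEC and Csf3r on the other arrays. In the cultured Hepa1-6 cells 3 of the markers were well above background (Elane, Ly6g and Csf3r). These 3 therefore do not mark neutrophils alone here, and the sum leans on Csf3r. Without KYN2 TEC 12 of the 15 were higher. Mmp9, Ltf, Ngp, Ly6g and Cxcr2 were not well above background in LSEC. HAK1B TEC, the array on which 7 of the 9 genes were highest (6 with the RefSeq probe of Tlr4), also had the highest median of the neutrophil list. The same array had the highest macrophage median, with 0.47, -0.83 and -0.40 in HAK1B, Hepa1-6 and KYN2 TEC. It also had the highest B cell median, with 0.46, -1.09 and 0.33. Whether any of these cell types contributed to the signal of the 9 genes was not tested. Of 6 hepatoma cell markers, H19 was 2-fold or more higher in all 3 (3 markers were without HAK1B TEC and 2 without KYN2 TEC), but it was not well above background in the cultured Hepa1-6 cells, and neither was Epcam, so that neither marks that line here. In HAK1B TEC, Afp, Krt8 and Krt18 were lower than in LSEC, at log2 ratios of -1.59, -1.46 and -1.12. The summed signal of the 6 was 0.73-fold, 85.5-fold and 4.66-fold that of LSEC, with Krt18 the brightest on each array. The probes are for mouse genes and HAK1B and KYN2 are human lines, so these sums may not measure the tumor cells in HAK1B and KYN2 TEC. Hepa1-6 TEC, the array on which 5 of the genes were lowest among the endothelial samples (6 with the RefSeq probe of Tlr4), also carried the most signal of these mouse markers, while the cultured cells had the lowest signal of all 9 genes. The summed hepatocyte signal was 0.037-fold, 1.80-fold and 0.062-fold that of LSEC, with 3 of 12 markers lower in all 3 TECs and 9 without Hepa1-6 TEC. Of 10 T and NK cell markers Ncr1 and Klrb1c were higher (neither well above background in LSEC, 0 counted with normexp background correction, and 1 other marker lower without Hepa1-6 TEC), of 12 stellate cell and fibroblast markers Col1a1, Col1a2, Col3a1 and Pdgfrb were higher (with 1 lower without HAK1B TEC), and of 7 erythroid and platelet markers 2 were lower (6 without KYN2 TEC). Of 5 B cell markers 0 were higher or lower in all 3.

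**Figure D5:**
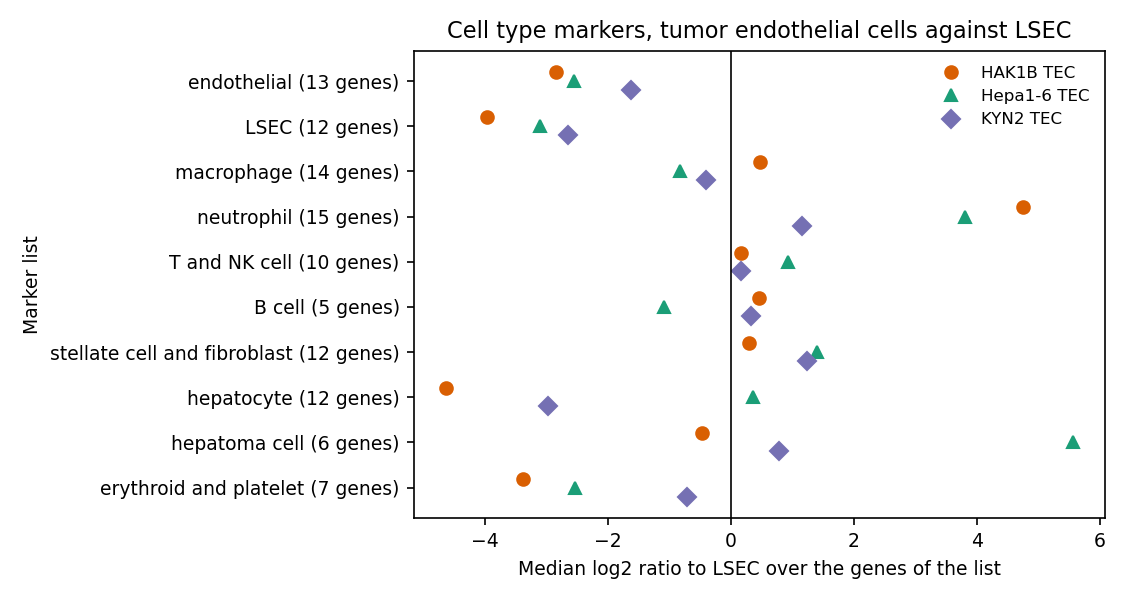
Median log2 ratio to LSEC (horizontal axis) of each of 10 marker lists (vertical axis), with 1 symbol per TEC. The endothelial medians lie at -2.84, -2.56 and -1.62, the neutrophil medians at 4.75, 3.81 and 1.15, and the hepatoma cell list stands out in Hepa1-6 TEC at 5.57.

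The genes with the most like profiles were found by the root mean square difference of centered log2 signals over the 5 arrays, among 18794 genes well above background on at least 3 of them. For Ptgs2 these were Saa3, with a difference of 0.63, Slc16a3 with 0.64 and Itgax with 0.64. For Tlr2 they were Tmeff1 (0.40), Gm826 (0.41) and Pou2f2 (0.44), and for Tnf they were Rgs1 (0.48), Trp53i11 (0.52) and Hk3 (0.60). Il6 lay nearest to Lmo2 (0.50), Sdc3 (0.53) and Plbd1 (0.60). Nfkbiz lay nearest to D430022A14Rik (0.077) and Tnfaip3 to Tmem163 (0.13). The profile of Nfkbia was nearest to that of LOC102642189 (0.16), that of Socs3 to AW555355 (0.14) and that of the brightest Tlr4 probe to 5830411N06Rik (0.091). The likeness is a description over 5 arrays, and the cultured cells were the lowest array for each gene named here, as for the 9.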

How the data were processed

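Gene expression was measured on 5 single-color Agilent arrays. Per the file headers, the deposited scanner intensity (processed signal) was made by the authors with Feature Extraction 10.7.1.1, whereas the submitters' processing notes name 9.5.1.1. The deposited series table holds linear intensity that the authors had quantile normalized, in the rank order of the scanner signal, and was used as an alternative. By the authors' methods, log2 signals were quantile normalized for the 2 samples compared. Here, log2 processed signals of 56605 probes were quantile normalized over the 5 arrays, repeated spots averaged, and each gene shown by its probe of highest mean signal, with every probe of the 9 genes reported. Each of these probes has 1 spot, so that its error was not measured. Repeated spots of other probes had a median coefficient of variation of 2.53% to 2.93%. Between 44.6% (Hepa1-6 cells) and 78.1% (Hepa1-6 TEC) of probes were well above background, and 0 spots were saturated. The number of arrays limits the precision.

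Groups came from the labels. The rule of size kept probes present on at least 1 of the 2 arrays and left out lincRNA probes. The 3 TECs were fitted against LSEC with limma 3.58.1 in R 4.3.3, with Benjamini-Hochberg adjustment, which leaves 2 residual degrees of freedom per probe. The steps were run on simulated data whose noise was smaller than the spread between the TECs. That run checks the code and says nothing about the power on these arrays. The 9 genes, the pathway lists and the marker lists were chosen with earlier results of these data known. From each pathway list the text names up to 3 genes with the largest absolute mean log2 ratio among those above background on an endothelial array, and gives the members counted past 2-fold. The sites where probes fall within transcripts were not analysed here. Promoters and gene length are from RefSeq, build GRCm38.p6, and probe positions from the array design on mm9. The alternatives tried were the 75th percentile as scale, quantile normalization by pair, the deposited table, normexp background correction (offset 50), other flag filters, no Z-score, the median over probes and leaving out each TEC. A marker gene counted in the macrophage list is not reported here by itself.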

Additional observations from a re-analysis of the deposited data

Results flagged for a closer look

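Tlr2 was higher than LSEC in HAK1B TEC (log2 ratio 3.47) and lower in Hepa1-6 TEC (-0.87), a gap of 4.34 on the log2 scale between tumor lines under the same contrast. The ratios kept these signs under every normalization tried, between 3.28 and 3.59 in HAK1B TEC and between -0.88 and -0.77 in Hepa1-6 TEC. Nfkbiz showed the same split, at 1.21 and -0.75, a gap of 1.95. Each line has 1 array, so neither difference was tested.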

How the results depend on the processing

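No paired analysis was possible because there is a single array per condition. A fit with slide as a block was left out, as TECs and LSEC lie on separate slides. Without the Z-score the rule of size called 7 of the 9 genes in HAK1B TEC, 7 in Hepa1-6 TEC, 6 in KYN2 TEC and 9 in Hepa1-6 cells, beside 53.2%, 66.0%, 55.0% and 73.6% of all probes, since the ratio alone is a much lower bar. With scaling to the 75th percentile it called 0 in Hepa1-6 TEC, in place of Ptgs2. In Hepa1-6 cells it called 5 with normexp background correction, 5 with probes present on both arrays and 5 with no flag filter, beside 5.60%, 5.33% and 6.24% of all probes. These were not the same genes: Ptgs2 was not called with normexp, and the flag on both arrays leaves out Ptgs2, Tnf and Il6; the cause was not tested for the others. Leaving out each TEC in turn gave 1 to 3 genes past 2-fold in all remaining TECs, the 3 without Hepa1-6 TEC being Tlr2, Ptgs2 and Tnf. The mean log2 ratio of Ptgs2 stayed between 4.54 and 5.52 under all alternatives. Those of Il6 (-0.61 to 0.17), Socs3 (-0.76 to 0.10) and Tnfaip3 (-0.05 to 0.79) crossed 0, each within its SD. Tlr4 by its RefSeq probe, an alternative chosen after seeing the data, had -0.88. limma called 0 probes under every alternative run, with a smallest adjusted p from 0.0576 (normexp background correction) to 0.982. The other alternatives kept the counts of the 9 genes within 1.5 times and their mean log2 ratios within 1 SD, which was wide: over the alternatives the mean ran from 0.08 to 2.25 for Tlr2, 0.77 to 2.14 for Tnf, 0.05 to 1.02 for Nfkbiz and 0.07 to 0.75 for Nfkbia, with the extremes where 1 TEC was left out, except the upper one of Nfkbia, which came with scaling to the 75th percentile. Counts of the other lists that moved by over 1.5 times are given beside those lists.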
